A study of Mus musculus with 2 samples.

Results

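The V1R genes encode G protein-coupled receptors of the vomeronasal organ (VNO), the sensory organ at the base of the nasal septum through which mice detect pheromones and other social cues. Receptors of this family are carried by apical vomeronasal sensory neurons (VSNs), which signal through the G protein subunit *Gnai2* and the channel *Trpc2*, whereas basal VSNs carry V2R receptors and use *Gnao1*. Each mature apical VSN is thought to express a single V1R gene from one allele, and the axons of neurons with the same receptor gather in the same glomeruli of the accessory olfactory bulb. Most V1R genes sit in tandem clusters of close relatives, so neighbors often resemble each other in sequence.

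The genes described here are all those whose symbol begins with Vmn1r, other than *Vmn1r72*, *Vmn1r79*, *Vmn1r184* and *Vmn1r185*, which leaves 205 of 209 Vmn1r genes among 32285 genes counted. VNOs of male C57 BL/6J wild-type mice at postnatal day 60, with no mutant allele, treatment or reporter, were dissociated with papain and frozen before capture. The sources name 5 VNOs or mice in total and 2 droplet-based libraries with 10000 cells targeted in each, and do not say whether the libraries held different animals, so the spread between the 2 libraries may be technical. Each count is a unique molecular identifier (UMI), that is, 1 captured mRNA molecule of a gene in 1 barcoded droplet.

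Library 1 held 12814 barcodes and 108005626 UMIs, and library 2 held 11270 barcodes and 95442231 UMIs. After removal of barcodes with under 200 or over 9000 genes or over 5% mitochondrial UMIs, 5694 and 4898 cells were left, with medians of 6668 and 6650.5 UMIs. V1R genes made up 0.204% and 0.217% of all UMIs in the 2 libraries. The same barcode sequence occurred in both libraries 33 times, of which 3 were among the cells kept.

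Neurons were taken as cells with at least 3 UMIs of *Omp*, a protein of mature olfactory and vomeronasal neurons, and *Gap43*, a growth cone protein of immature neurons, counted together. There were 1475 such cells (811 in library 1 and 664 in library 2). A neuron was assigned a V1R gene if its most abundant V1R gene, called the leading gene below, had at least 3 UMIs. Assigned neurons numbered 884, which is 59.9% (95% exact interval 57.4 to 62.4), with 59.4% in library 1 and 60.5% in library 2. All intervals given here are exact (Clopper-Pearson) and cover counting error only.

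The cells were checked against marker genes that did not choose them. Of the 848 assigned neurons with more V1R than V2R UMIs, 99.8% had a UMI of *Gnai2* and 97.3% one of *Meis2*, a transcription factor of apical VSNs. In the same cells, 13.9% had a UMI of *Gnao1* and 4.01% one of *Tfap2e*, the transcription factor of basal VSNs. *Cnga2*, which defines neurons of the main olfactory epithelium, had no UMI in any of these cells. It was also in only 1 of 8152 cells without *Omp* and *Gap43* UMIs. Of the other olfactory markers, *Gnal* was in 0.590% and *Stoml3* in 0.708% of the 848 neurons. *Adcy3* was in 13.6% of all 884 assigned neurons, against 3.24% of the cells without *Omp* and *Gap43* UMIs. Among 225 neurons with at least 3 V2R UMIs and more V2R than V1R UMIs, the 4 vomeronasal shares were 53.3%, 35.6%, 92.9% and 68.4% in the same order.

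Of the 591 neurons without an assigned V1R gene, 190 had at least 3 V2R UMIs, 42 had at least 3 UMIs of one of the 4 Vmn1r genes left out by the definition, and 362 had neither. The last class had a median of 9185 UMIs, against 14540 in assigned neurons. A UMI of *Gnai2* was in 344 of its 362 cells, and in 78.8% of cells without *Omp* and *Gap43* UMIs. *Meis2* was in 78.2%, *Gnao1* in 45.6% and *Tfap2e* in 14.1% of the class, against 97.1%, 17.1% and 7.01% of assigned neurons. *Omp* led over *Gap43* in 1003 neurons, of which 770 (76.8%) were assigned, and *Gap43* led or tied in 472 neurons, of which 114 (24.2%) were assigned. Assignment also followed the number of *Omp* and *Gap43* UMIs in a cell. It was reached in 22.9% of 965 cells with 1 to 2 such UMIs, 48.5% of 518 cells with 3 to 9, 65.0% of 917 cells with 10 to 49 and 92.5% of 40 cells with 50 or more. Median depth rose over the same classes, at 5880, 9438.5, 14543 and 60458 UMIs, and its part in this was not tested. Of the 40 cells, 34 also had at least 3 V2R UMIs.

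Choice was uneven and spread over much of the family. A single leading gene was present in 877 neurons, and 7 more were tied. Of the 205 genes, 127 led in at least 1 neuron, 31 had UMIs in the cells kept but led in none, and 47 had no UMI in those cells. Of the last, 41 had no UMI in any of the 24084 barcodes. Among the 127, 23 led in 1 neuron, 52 in 2 to 5, 28 in 6 to 10 and 24 in more than 10. The 22 most frequent genes accounted for 50% of the neurons.

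*Vmn1r35* led most often, in 25 neurons of library 1 and 24 of library 2, which is 5.54% of assigned neurons (4.13 to 7.26). *Vmn1r37* followed with 25 and 19 neurons, and *Vmn1r85* with 24 and 11. The intervals of *Vmn1r35* and *Vmn1r37* overlap widely, so their order is not resolved. *Vmn1r218* came next with 23 neurons, then *Vmn1r32*, *Vmn1r39* and *Vmn1r89* with 22 each, *Vmn1r33* with 21, and *Vmn1r236* with 19. The following 11 genes (*Vmn1r51*, *Vmn1r61*, *Vmn1r90*, *Vmn1r237*, *Vmn1r70*, *Vmn1r34*, *Vmn1r230*, *Vmn1r38*, *Vmn1r226*, *Vmn1r233* and *Vmn1r86*) led in 17 down to 13 neurons. From *Vmn1r218* on, neighbors in this order differed by at most 2 neurons, less than the width of their intervals.

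**Figure D1:**
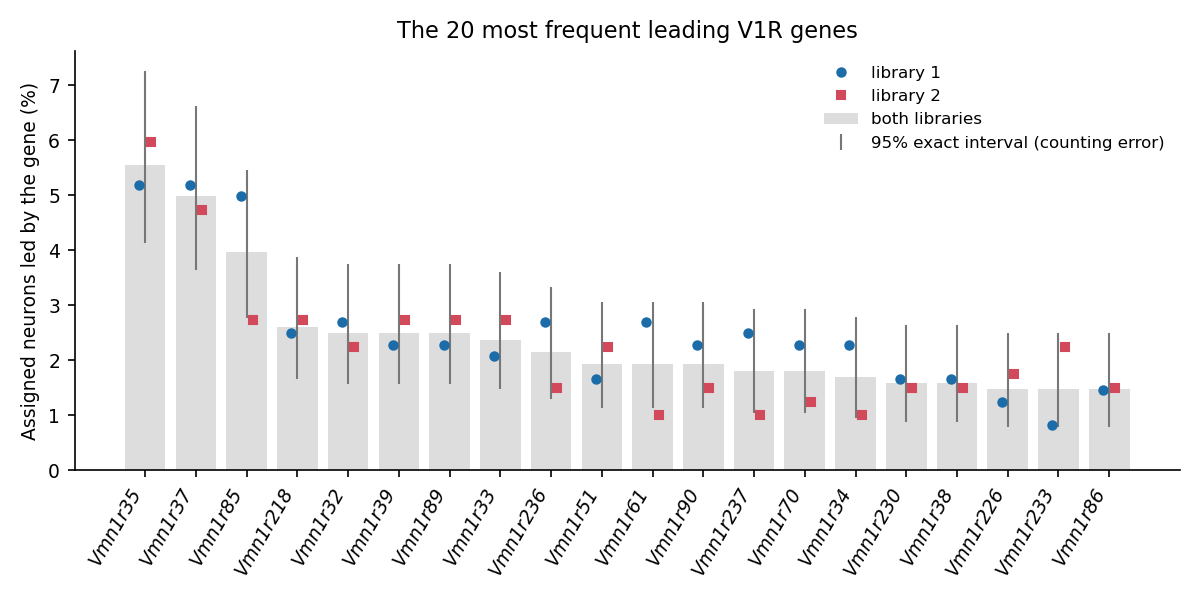
The share of assigned neurons led by each of the 20 most frequent V1R genes (y axis, percent of assigned neurons). Bars give both libraries together with exact 95% intervals and points each library, and *Vmn1r35*, *Vmn1r37* and *Vmn1r85* stand highest at 5.54%, 4.98% and 3.96%, while *Vmn1r85* also shows the widest gap between libraries.

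The 2 libraries ranked the genes much alike. Across the 205 genes, which are not independent replicates, the numbers of neurons led in the 2 libraries had a Pearson correlation of 0.835 and a Spearman correlation of 0.761. Of the 20 most frequent genes in each library, 13 were shared, and 90 genes led in both. The other 37 leading genes held 66 neurons in all, with at most 9 for any one of them. That gene was *Vmn1r50*, with 9 neurons in library 1 and 0 in library 2, and 6 of its 9 neurons belonged to the repeated receptor sets described below. In the plot of choice by library, the genes below the first 3 lie in a narrow band in which the order of libraries changes from gene to gene.

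Position in the genome divided the repertoire sharply (mm10, positions from the GENCODE annotation). Chromosome 6 carried 51 of the genes and led 351 neurons (40.0%), chromosome 7 carried 99 and led 305 (34.8%), chromosome 17 carried 14 and led 119 (13.6%), and chromosome 13 carried 35 and led 102 (11.6%). The other 6 genes, on chromosomes 1, 4, 18 and X and on an unplaced contig, led in no neuron. *Vmn1r1* on chromosome 1 had 146 UMIs over all barcodes but 11 in the cells kept.

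The most used cluster was chr6:66552180-66810609, whose 8 genes *Vmn1r32* to *Vmn1r39* all led and together held 194 neurons, with 22.2% of neurons in library 1 and 22.1% in library 2. That is 24.3 neurons per gene, against 0.831 per gene in the largest cluster, chr7:20099680-24063554, where 22 of 65 genes led 54 neurons. The cluster chr7:10272991-13220657, which holds *Vmn1r85*, *Vmn1r86* and *Vmn1r89*, lay between these with 162 neurons for 22 genes. All 14 genes of the chromosome 17 cluster led, at 8.50 neurons per gene. A cluster here is a run of V1R genes with no gap over 1 Mb.

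Genes without neurons differed from the others in their sequence. Reads that match more than 1 gene equally well are not counted, so each V1R transcript was compared with those of all 327 V1R genes of the annotation in windows of 50 bases (50-mers). Of the 41 genes with no UMI in any barcode, 32 lay on chromosome 7, and 35 had under 50% of 50-mers to themselves, with a median of 0.984%. The 127 leading genes had a median of 96.6%, with 11 under 50%. A 3′ UTR was annotated for 7 of the 41 and for 119 of the 127, and these libraries read the 3′ end of mRNAs. Whether these 41 genes are transcribed was not tested. In the large chromosome 7 cluster, 49 of 65 genes had under 50% unique 50-mers, against 0 of 8 in the *Vmn1r32* to *Vmn1r39* cluster.

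The level of the leading gene covered a wide range. It had a median of 130.5 UMIs (range 3 to 1367), or 0.752% of the UMIs of the cell, with medians of 133 UMIs in library 1 and 124.5 in library 2. In neurons led by *Omp* the median was 144 UMIs and in those led by *Gap43* 55 UMIs, in cells with median totals of 15061 and 9320.5 UMIs before selection for a receptor. As a share of the cell, these were 0.792% and 0.564%.

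Levels differed widely among receptors. Over the 65 genes that led in at least 5 neurons, the median number of UMIs of the leading gene ran from 11 to 1147.5. *Vmn1r196* had the highest level, between 3 and 1367 UMIs in its 6 neurons with a median of 1147.5. *Vmn1r171* (439.5 UMIs), *Vmn1r225* (408), *Vmn1r220* (374) and *Vmn1r43* (373) came next. *Vmn1r35*, *Vmn1r37* and *Vmn1r218*, which are chosen often, had medians of 235, 234.5 and 233 UMIs. *Vmn1r33*, chosen almost as often as *Vmn1r218*, had 66 UMIs with a highest value of 98, so frequency of choice and level per neuron were separate properties in these receptors. *Vmn1r56* was lowest, at 11 UMIs with a highest value of 23 in 10 neurons. Since these UMIs come from 3′ ends that differ between genes in length and in unique sequence, they compare the counts and not the numbers of transcripts.

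One receptor held nearly all V1R UMIs in most neurons. The leading gene had at least 90% of V1R UMIs in 682 of 884 assigned neurons (77.1%, 74.2 to 79.9), with 76.8% in library 1 and 77.6% in library 2, and its median share was 99.6%. No UMI of any other V1R gene was found in 407 neurons (46.0%). A second V1R gene with at least 3 UMIs was present in 207 neurons (23.4%, 20.7 to 26.4), with 22.2% in library 1 and 24.9% in library 2. In 167 of these (18.9% of assigned neurons) the second gene also reached 10% of the leading gene. Dominance was reached in 78.1% of *Omp*-led assigned neurons, which lies within the interval for *Gap43*-led ones (71.1%, 61.8 to 79.2).

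**Figure D2:**
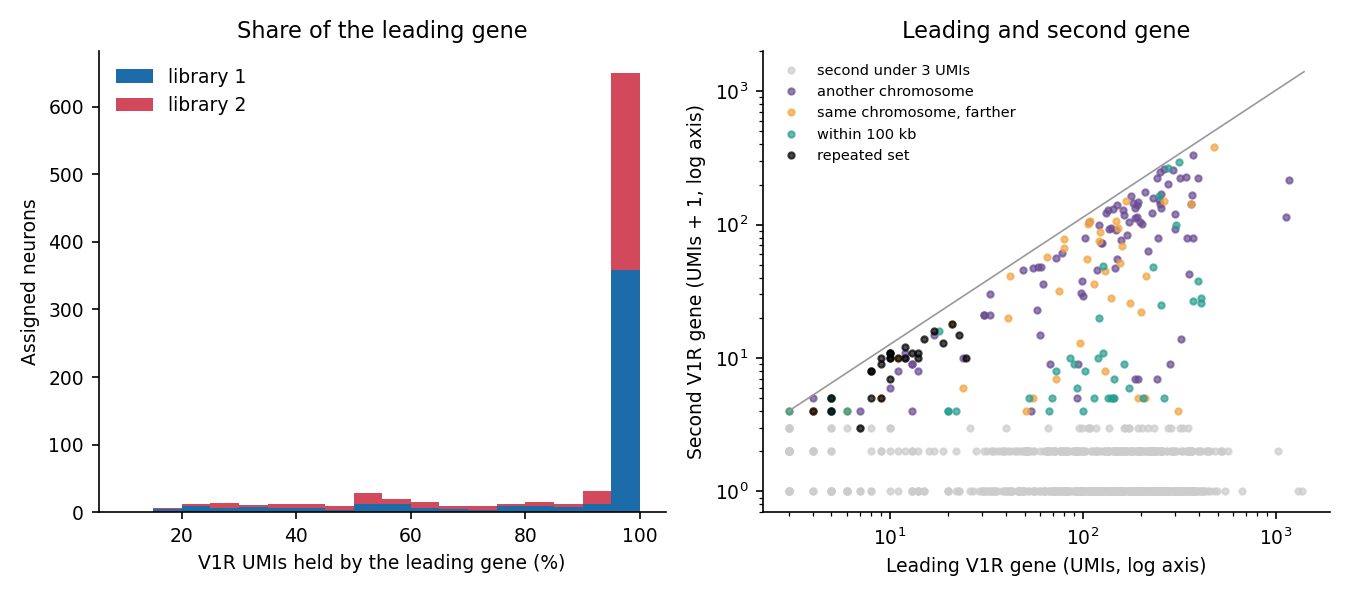
Left, the percent of V1R UMIs held by the leading gene (x axis) in 884 assigned neurons, stacked by library. Right, UMIs of the leading gene (x axis, log scale) against UMIs of the second gene plus 1 (y axis, log scale), colored by the position of the second gene, with the line at equal values, where second genes within 100 kb have a median of 8.89% of the leading gene and those on another chromosome 63.6%.

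Neurons with many receptors were also cells with many UMIs. The 677 assigned neurons with 1 V1R gene at 3 or more UMIs had a median of 14028 UMIs, and the 108 with 2 had 16746.5. The 68 neurons with 3 to 5 had a median of 40208.5 UMIs, and their leading gene held a median of 49.9% of V1R UMIs. Of the 31 neurons with 6 or more, 20 outside the repeated sets below had a median of 32608.5 UMIs and 24 V2R UMIs, while the median number of V2R UMIs in neurons with 1 receptor was 0. Scrublet, a caller of droplets with more than 1 cell, marked 18 of the 677, 5 of the 108 and none with 3 or more V1R genes. The part of such droplets in these values was not tested further. Thinned to 3000 UMIs per cell, 80.9% of assigned neurons had a dominant gene and 15.7% a second gene at 3 UMIs. With barcodes up to 10% mitochondrial UMIs these shares were 65.5% and 36.4%.

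Some barcodes carried the same unusual mixture of receptors. Barcodes were linked where 2 of them shared at least 4 V1R genes at 2 or more UMIs, so a set need not share 4 genes throughout. This gave 5 sets of 6 to 15 linked barcodes, each of a single library, 51 barcodes in all. They held 27 of the neurons, each of them assigned. The largest set, 15 barcodes of library 1, held *Vmn1r85*, *Vmn1r50*, *Vmn1r55*, *Vmn1r58*, *Vmn1r61*, *Vmn1r6*, *Vmn1r68*, *Vmn1r4* and *Vmn1r231*, which lie on 3 chromosomes, with medians of 2 to 10 UMIs per gene. Each of these genes reached 2 UMIs in 11 to 15 of the 15 barcodes. Another of 12 barcodes, all of library 2, held *Vmn1r89*, *Vmn1r35*, *Vmn1r171*, *Vmn1r234* and *Vmn1r231*, each at 2 UMIs in 8 to 12 of them. The sustentacular gene *Cyp2a5* had a UMI in all 15 barcodes of the former and 11 of 12 of the latter, against 35.4% of assigned neurons. The other sets were led by *Vmn1r35* with *Vmn1r196* (11 barcodes, library 2), *Vmn1r218* with *Vmn1r51*, *Vmn1r202* and *Vmn1r9* (7, library 1) and *Vmn1r32* (6, library 1).

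No set had barcodes of both libraries, and Scrublet marked none of the 51. The values of dominance were therefore also computed without them. Outside the sets, 857 neurons were assigned, the leading gene was dominant in 79.6% and a second gene at 3 UMIs was present in 21.1%. There were 34 ordered pairs of a leading and another gene, each in at least 3 neurons, and many came from these sets. The pairs led by *Vmn1r50* (with *Vmn1r55*, *Vmn1r58*, *Vmn1r85*, *Vmn1r4*, *Vmn1r61*, *Vmn1r68*, *Vmn1r6* or *Vmn1r231*) were found in 0 neurons outside them. Those led by *Vmn1r51* (with *Vmn1r202*, *Vmn1r218* or *Vmn1r9*), by *Vmn1r218* (with *Vmn1r202*, *Vmn1r51* or *Vmn1r9*) or by *Vmn1r85* (with *Vmn1r62* and members of the largest set) were found in at most 1 each. *Vmn1r89* was joined by *Vmn1r171* and by *Vmn1r35* in 5 neurons of library 2 and 0 of library 1, of which 3 lay outside the sets.

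Second genes fell into 2 classes by position. In 43 of the 207 neurons (20.8%) the second gene lay within 100 kb of the leading gene, start to start, in 45 it lay farther off on the same chromosome, and in 119 on another chromosome. Of all 8001 pairs of leading genes, 157 (1.96%) lie within 100 kb, and the share is 3.91% when pairs are weighted by how often the genes lead. The share of neighbors among second genes was thus above both of these shares, which were compared without a test, at 25.2% in library 1 and 16.0% in library 2. These neighbors had a median of 8.89% of the leading gene (quartiles 4.69% and 35.1%), against 50% for other genes of the same chromosome and 63.6% for other chromosomes. Many of the 43 neurons held one of a few pairs described below, among them pairs of *Vmn1r35*, *Vmn1r36* and *Vmn1r37* that share sequence. The share and the median therefore do not describe neighbors in general. Neurons with a neighbor as second gene had a median of 14175 UMIs, close to the 14028 of neurons with no second gene, and those with a gene of another chromosome 30164. Both classes spread widely in the plot of leading against second gene, and some neighbors lie near the line of equal values. The share of neighbors fell to 12.9% with barcodes up to 10% mitochondrial UMIs, to 12.8% after thinning to 3000 UMIs, to 12.6% for genes next to each other in order and to 10.8% when the second gene had to reach 10% of the leading gene.

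The clearest pair was *Vmn1r86* with *Vmn1r85*. Of 13 neurons led by *Vmn1r86*, 12 had at least 3 UMIs of *Vmn1r85* (7 in library 1 and 5 in library 2), whereas 15 of 829 neurons led by genes other than these 2 did (1.81%). The 7 neurons of library 1 had 53, 73, 263, 373, 396, 410 and 410 UMIs of *Vmn1r86* with 4, 7, 4, 26, 37, 25 and 27 of *Vmn1r85*. In library 2 there were 80, 105, 109, 231 and 255 UMIs of *Vmn1r86* with 3, 7, 16, 47 and 24 of *Vmn1r85*. *Vmn1r85* thus stayed between 1.52% and 20.3% of *Vmn1r86*, with a median of 7.26%. The relation ran in 1 direction, since 0 of 35 neurons led by *Vmn1r85* had 3 UMIs of *Vmn1r86*. Both genes lie on the minus strand, *Vmn1r86* at chr7:13097531-13119917 and *Vmn1r85* downstream of it at chr7:13083313-13095173, with 2.36 kb between them.

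*Vmn1r49* with *Vmn1r47* followed, in 9 of 11 neurons (4 in library 1 and 5 in library 2) at a median of 4.91% of *Vmn1r49*. *Vmn1r47* reached 3 UMIs in 0 of 858 neurons led by other genes, and *Vmn1r49* in 0 of 8 led by *Vmn1r47*. These genes lie on opposite strands with 44.4 kb between them, *Vmn1r49* at chr6:90071893-90078506 and *Vmn1r47* at chr6:90016147-90027477. *Vmn1r18* with *Vmn1r17* was found in 4 of 4 neurons at a median of 4.34%, and *Vmn1r17* in 0 of 870 others. *Vmn1r192* with *Vmn1r191* was found in 3 of 3 neurons at a median of 9.59%, and *Vmn1r191*, which led in no neuron, had 3 UMIs in 4 of 874 others. In both of these the weaker gene lies downstream on the same strand, at 12.9 kb and 0.028 kb. In the 4 pairs the weaker gene therefore never exceeded 20.3% of the stronger one.

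**Figure D3:**
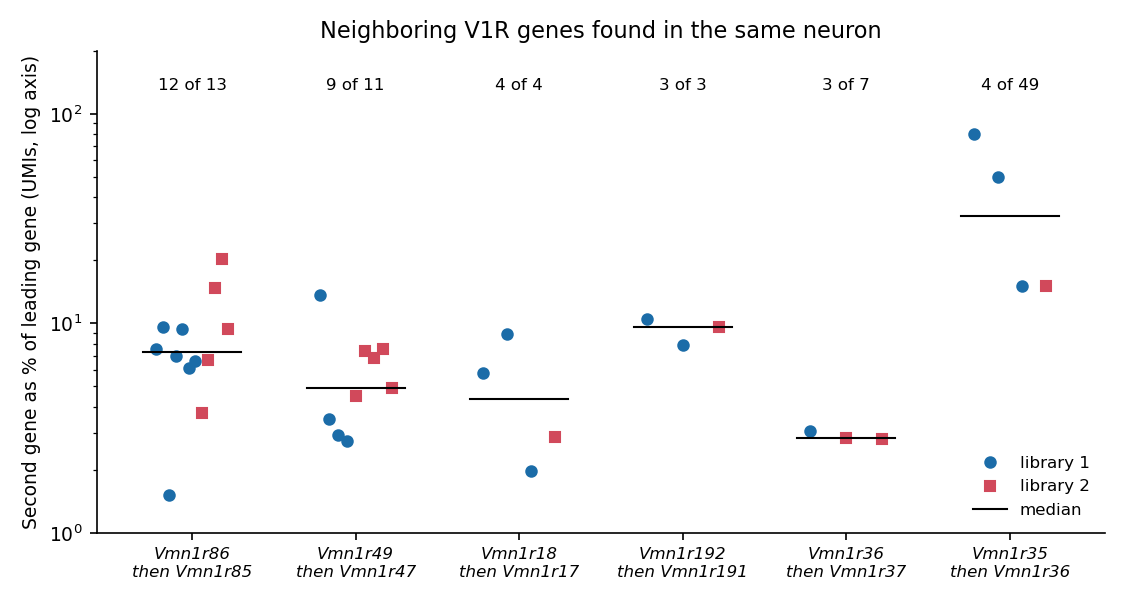
UMIs of the weaker neighbor as a percent of the leading gene (y axis, log scale) in each neuron that held both, by pair (x axis) and library. Numbers above give neurons with the pair among neurons led by the first gene, and in *Vmn1r86* then *Vmn1r85* all 12 points lie between 1.52% and 20.3%.

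Annotated transcripts were compared to see whether reads of one gene of a pair could match the other. Reads from outside the annotated transcripts are not covered by this, and the origin of the UMIs of the weaker gene was not tested. For the 4 pairs above, no 50-mer was shared between the transcripts of *Vmn1r86* and *Vmn1r85*, *Vmn1r49* and *Vmn1r47*, *Vmn1r18* and *Vmn1r17*, or *Vmn1r192* and *Vmn1r191*, and the coding sequences had 69.0%, 70.3%, 80.2% and 63.5% identical bases. The longest stretches that their coding sequences share are shown here, each from the leading gene, 5′ to 3′ on the coding strand of mm10. They are 21, 17, 27 and 26 bases long, and over whole transcripts the longest shared stretches had 21, 19, 27 and 46 bases.
*Vmn1r86* and *Vmn1r85*, chr7:13102604-13102624 and chr7:13084869-13084889, both on the minus strand: catcaccatcactcccagtaa
*Vmn1r49* and *Vmn1r47*, chr6:90072308-90072324 on the minus strand and chr6:90022582-90022598 on the plus strand: cagagcaaagggccacc
*Vmn1r18* and *Vmn1r17*, chr6:57390321-57390347 and chr6:57361132-57361158, both on the minus strand: tcaaatgtaagacaactttttacataa
*Vmn1r192* and *Vmn1r191*, chr13:22187893-22187918 and chr13:22179430-22179455, both on the minus strand: accttattctcatccacttggctttt

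Pairs within the *Vmn1r32* to *Vmn1r39* cluster differed from these in their sequence. *Vmn1r36* with *Vmn1r37* was found in 3 of 7 neurons at a median of 2.84%, and *Vmn1r35* with *Vmn1r36* in 4 of 49 at a median of 32.5%. These 4 neurons had 5, 6, 20 and 20 UMIs of *Vmn1r35* with 4, 3, 3 and 3 of *Vmn1r36*, far below the median of 235 for *Vmn1r35*. Transcripts of *Vmn1r36* and *Vmn1r37* share 703 50-mers and 97.9% of their coding bases, and a run of 396 identical bases from the start codon on. *Vmn1r35* and *Vmn1r36* share 170 50-mers and 92.5% of coding bases. The first 90 coding bases of the 3 genes are given here on their own strands (mm10), with capitals for the 6 bases that differ from *Vmn1r35* at the same position, and they are identical in *Vmn1r36* and *Vmn1r37*.
*Vmn1r35*, chr6:66679595-66679684, minus strand: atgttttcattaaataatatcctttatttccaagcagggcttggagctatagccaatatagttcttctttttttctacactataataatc
*Vmn1r36*, chr6:66716800-66716889, minus strand: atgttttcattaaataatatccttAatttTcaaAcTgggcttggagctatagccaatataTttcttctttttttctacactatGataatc
*Vmn1r37*, chr6:66731392-66731481, plus strand: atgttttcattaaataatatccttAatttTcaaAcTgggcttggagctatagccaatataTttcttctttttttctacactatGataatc

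The part of shared sequence in the counts of these pairs was not tested. *Vmn1r62* with *Vmn1r58* was found in 3 of 11 neurons, and their transcripts share 291 50-mers although the genes lie 260 kb apart. *Vmn1r37* with *Vmn1r35* (3 of 44 neurons) also shares sequence, while *Vmn1r61* with *Vmn1r35* (3 of 17), on different chromosomes, does not. *Vmn1r35* had 3 or more UMIs in 20 of 811 neurons led by neither *Vmn1r61* nor itself, and it is also among the genes with the highest level in cells that are not neurons.

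Cells without any UMI of *Omp* or *Gap43* gave the level of V1R UMIs outside the neurons. Of 8152 such cells, 30.0% had at least 1 V1R UMI (30.5% in library 1 and 29.4% in library 2), but 3.28% had any V1R gene at 3 or more. V1R genes stood at 112 UMIs per 1000000 UMIs of these cells (CPM), at 120 CPM in library 1 and 103 CPM in library 2, against 6375 CPM in neurons, at 6285 and 6479 CPM. With every cell thinned to 3000 UMIs, 13.8% of these cells and 66.5% of neurons had a V1R UMI. Thinning left out 2626 of the 8152 cells and 34 of the 1475 neurons for want of depth.

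The background reached cells of unrelated lineages. A V1R UMI was found in 27.3% of 1796 cells with the macrophage genes *C1qa* and *C1qb*, 24.0% of 726 with the neutrophil genes *S100a8* and *S100a9*, 24.8% of 677 with the endothelial genes *Pecam1*, *Eng* and *Sox17* and 26.1% of 1894 with the basal cell genes *Krt5* and *Trp63*. Their median depths ran from 1638 UMIs in the neutrophil group to 9370.5 in the basal cell group, and after thinning the macrophage, endothelial and basal cell groups stood at 18.5%, 12.3% and 10.4%. In cells with the fibroblast genes *Dcn* and *Col1a2* and with *Tagln* and *Acta2*, V1R genes had 200 and 241 CPM in library 1 but 66.4 and 40.4 CPM in library 2. Cells with the sustentacular genes *Cyp2a5* and *Fezf2* had a V1R UMI in 50.4% of 540 cells (46.1 to 54.7) and a V1R gene at 3 UMIs in 10.4%. Their median depth was 10975 UMIs. When thinned to 3000 UMIs, 24.2% of them had a V1R UMI, the highest share among the marker groups in the plot of background. The next was 20.2%, in cells with *Tagln* and *Acta2*. Neurons assigned to V2R genes also held V1R UMIs. A V1R UMI was present in 43.6% of these 225 neurons, at 831 CPM, and in 22.5% of them after thinning. Of the 225, 35 (15.6%) had a V1R gene at 3 or more UMIs and were thus also assigned a V1R gene. Assigned neurons held 155238 of the 155760 V1R UMIs of all neurons. Most of the 4042 V1R UMIs of the 225 therefore lay in these 35, and 831 CPM is no level of basal VSNs in general.

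**Figure D4:**
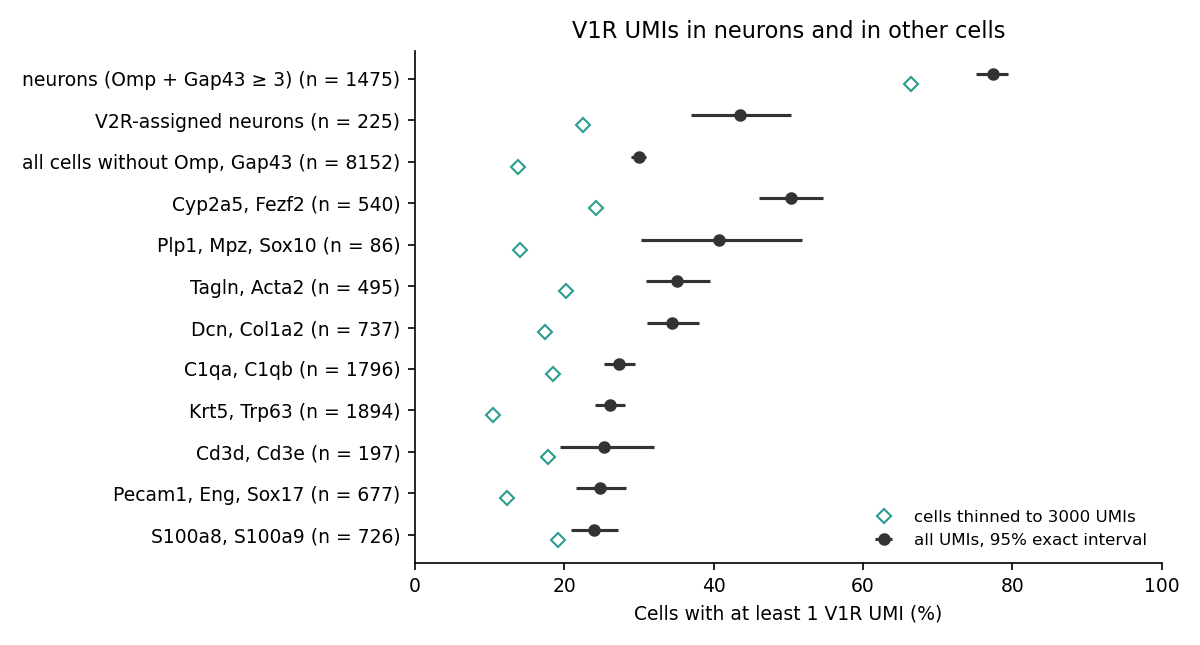
Percent of cells with at least 1 V1R UMI (x axis) in neurons, in neurons assigned to V2R genes and in cells without *Omp* and *Gap43* UMIs grouped by marker genes. Filled points with exact 95% intervals use all UMIs and open points cells thinned to 3000 UMIs, and the *Cyp2a5* and *Fezf2* group lies at 50.4% against 24.0 to 40.7% in the other marker groups.

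The genes found in other cells were those abundant in neurons. Across the 205 genes, the share of V1R UMIs in neurons and in cells without *Omp* and *Gap43* had a Pearson correlation of 0.876 and a Spearman correlation of 0.906, over values from the same libraries. *Vmn1r37* (7.77 CPM), *Vmn1r35* (7.60), *Vmn1r89* (5.85), *Vmn1r47* (5.00) and *Vmn1r196* (4.64) were highest in these cells. *Vmn1r47* had its 289 UMIs in 0.405% of the cells, whereas *Vmn1r35* had 439 UMIs in 3.20%. Such concentration was general, since 267 of the 8152 cells held a V1R gene at 3 or more UMIs, and these had 51.0% of the 6459 V1R UMIs. Of the 267, 30 had a gene at 20 UMIs or more, up to 224. The 267 cells had a median of 1461 UMIs. Of them, 197 had a UMI of *Gnai2*, as did 6422 of all 8152. *Meis2* was in 46.1% of the 267, against 40.1% of the cells with no V1R gene at 3 UMIs. Whether the 267 are neurons with too few UMIs to show *Omp* was not tested. Without them, V1R genes were at 55.6 CPM.

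How the receptors change as apical neurons mature was asked in neurons with a UMI of *Meis2* and none of *Tfap2e*. V1R counts thus did not choose the cells, but these markers do not select apical neurons alone. *Meis2* had a UMI in 35.6% of neurons assigned to V2R genes and 40.3% of cells without *Omp* and *Gap43* UMIs. *Tfap2e* had one in 68.4% of the former. *Gap43*-led neurons here had medians of 9631.5 and 8823.5 UMIs, against 15034 and 14134 in *Omp*-led ones. The part of basal neurons in this comparison was not tested. V1R genes together stood at 9105 and 9056 CPM in the *Omp*-led neurons of libraries 1 and 2 (457 and 365 cells), against 2547 and 3476 CPM in *Gap43*-led neurons (170 and 142 cells). Values of the 2 groups do not overlap, but with 2 libraries each an exact permutation test cannot go below a two-sided p of 0.333. A V1R gene was assigned in 84.2% and 85.2% of the former and 32.4% and 34.5% of the latter. Among assigned neurons, the median of the leading gene was 154 and 143 UMIs in *Omp*-led and 56 and 66 UMIs in *Gap43*-led neurons, or 0.925% and 0.828% against 0.601% and 0.614% of the UMIs of the cell. More neurons with a receptor and more receptor mRNA per neuron both entered the sums. Dominance was reached in 79.5% and 84.6% of assigned *Omp*-led neurons and in 72.7% and 71.4% of assigned *Gap43*-led neurons, and a second gene was present in 20.8% and 20.6% against 21.8% and 22.4%.

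Gene by gene, UMIs summed per library and group were tested with edgeR over 14912 genes, of which 4423 (29.7%) passed an adjusted p of 0.05, 15.9% higher and 13.7% lower in *Omp*-led neurons. The filter of 10 UMIs left 131 of the 205 V1R genes, and 56 of them were called higher and 5 lower. With the library as a block these were 91 and 8, without the filter 94 and 13. A gene that passes the filter through the deeper *Omp*-led group tends to differ, and each V1R gene rests on few neurons. In 28 of the 61 called V1R genes, 2 cells held at least 50% of the UMIs in the higher group. *Vmn1r230* stood at 158 and 151 CPM in *Omp*-led against 1.12 and 0 CPM in *Gap43*-led neurons (log2 fold change 7.92, SE 0.365, adjusted p = 8.3e-05, edgeR), in 17 of 822 *Omp*-led neurons. *Vmn1r226* stood at 222 and 282 CPM against 0 and 0 CPM, at least 263-fold higher with 3 UMIs over the group as the floor. *Vmn1r230* led in 5 and 5 and *Vmn1r226* in 6 and 6 of the 385 and 311 assigned *Omp*-led neurons. Neither led in any of the 55 and 49 assigned *Gap43*-led neurons. With so few neurons per receptor, a change with maturity and the draw of neurons with that receptor cannot be told apart for such genes. *Vmn1r39* (log2 fold change 2.17) and *Vmn1r85* (1.50) were also called higher, though *Vmn1r85* lost its call with DESeq2 (adjusted p = 0.058) and in neurons with at least 10 UMIs of *Omp* and *Gap43* (log2 fold change 0.83, adjusted p = 0.11, edgeR).

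The 2 receptors chosen most often did not pass this test. *Vmn1r35* had 619 and 666 CPM in *Omp*-led against 244 and 514 CPM in *Gap43*-led neurons (adjusted p = 0.10, edgeR), but it became a call with the library as a block (adjusted p = 0.00404), without the filter (0.000325), with barcodes up to 10% mitochondrial UMIs (0.0415) and in neurons with at least 10 UMIs of *Omp* and *Gap43* (0.0286). *Vmn1r37* had 653 and 447 against 261 and 666 CPM (adjusted p = 0.67, edgeR), and its groups overlap. Of the 5 V1R genes called lower, *Vmn1r12*, *Vmn1r77* and *Vmn1r40* had 99.0%, 99.6% and 100% of their UMIs in at most 2 cells. *Vmn1r77* and *Vmn1r40* were no longer called with barcodes up to 10% mitochondrial UMIs (adjusted p = 0.068 and 0.13, edgeR). The other 2, *Vmn1r179* and *Vmn1r206*, named after their values were seen, reached at most 6.18 and 6.74 CPM. A difference in the maturity of neurons and a rare neuron with a given receptor cannot be told apart for these 5.

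Genes with a known part in receptor expression changed in both directions in the same comparison. Of 18 tested genes of a list of receptor choice and feedback, 4 rose and 9 fell, beside 15.9% and 13.7% of all genes, with a median log2 change of -0.66 against 0.05 over all genes. *Rtp1* and *Rtp2*, which help receptors to the cell surface, stood at log2 changes of 2.11 and 0.88 and both rose, as did *Adcy3* (1.51) and the endoplasmic reticulum chaperone *Hspa5* (0.41). *Adcy3* lost its call with DESeq2 (adjusted p = 0.11), and with barcodes up to 10% mitochondrial UMIs *Adcy3* (0.63, adjusted p = 0.053) and *Hspa5* (0.07, adjusted p = 0.67) lost theirs in edgeR, as *Hspa5* did in neurons with at least 10 UMIs of *Omp* and *Gap43* (adjusted p = 0.054). *Lhx2* (-1.78), *Ebf3* (-1.31), *Ebf1* (-0.78), *Ebf2* (-0.59) and *Emx2* (-0.73), transcription factors of olfactory neurons, fell. *Ldb1* (-0.73), the partner of *Lhx2*, *Kdm1a* (-1.41), a histone demethylase needed to start receptor expression, *Lbr* (-0.89), a nuclear envelope protein, and *Uncx* (-6.45) fell as well. *Lbr* lost its call with DESeq2 (adjusted p = 0.13), at the 10% limit (-0.32, adjusted p = 0.21) and in neurons with at least 10 UMIs of *Omp* and *Gap43* (-0.47, adjusted p = 0.36), where *Ldb1* lost its call too (adjusted p = 0.089). *Uncx*, a homeobox gene, had 57.3 and 70.4 CPM in *Gap43*-led and 0 and 1.49 CPM in *Omp*-led neurons.

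Signalling components rose with the receptors. Of 10 genes, 8 rose and 1 fell, with a median log2 change of 1.14, again beside 15.9% and 13.7% of all genes and a median of 0.05. *Gnai2* (1.28), *Gng13* (2.27), *Gng8* (0.67) and *Gnb1* (1.01), subunits of G proteins, *Plcb2* (2.63), a phospholipase, and the chloride channels *Ano1* (2.61) and *Ano2* (1.82) were among those that rose. *Gnao1* fell (-3.34), from 93.3 and 96.5 CPM to 5.71 and 13.2 CPM. Sustentacular genes moved the same way, since *Cyp2a5* and *Fezf2* were both called higher in *Omp*-led neurons, and their part in the result was not tested. Of 33 genes of axon guidance and adhesion, 12 rose and 8 fell (median 0.29), against the same shares of all genes. *Kirrel2* (1.99), an adhesion molecule that sorts axons, *Epha5* (2.35) and *Cntn4* (1.29) rose, and *Nrp2* (-1.23), the semaphorin receptor of apical VSNs, *Robo2* (-3.73) and *Ncam1* (-1.13) fell. The largest fitted changes outside the receptors included genes with no UMI in 1 group, for which only a lower bound of the fold can be given. *Lamb2*, *Cdh23*, *Gm31143*, *Flt1* and *Prickle2* had no UMI in *Gap43*-led neurons and were at least 5.90-, 5.75-, 5.61-, 5.46- and 5.39-fold higher in *Omp*-led ones. *Tekt2*, *Kcnj5*, *Gm45941* and *Kcns2*, with no UMI in *Omp*-led neurons, were at least 102-, 58.0-, 51.9- and 25.9-fold lower, and *Samd5* fell by 7.93 on the log2 scale. Of 5 apical genes tested 2 rose and 3 fell, and of 9 basal genes 2 rose and 2 fell, beside 15.9% and 13.7% of all genes.

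Neurons that carry V1R genes were then set against those that carry V2R genes among *Omp*-led cells (406 and 333 cells against 78 and 69), leaving out Vmn1r and Vmn2r genes, which define the groups. edgeR called 363 of 14388 genes (2.52%), 0.91% higher and 1.61% lower in V1R neurons. Of 6 genes of the apical list, 4 were called higher and none lower. *Gnai2* stood at 2964 and 2671 CPM against 734 and 587 CPM (log2 fold change 2.09, SE 0.141, adjusted p = 0.00038). *Ncam2* (2.09), *Nrp2* (1.81) and *Meis2* (1.46) rose too, while *Pde4a* (0.48, adjusted p = 0.17) and *Bcl11b* (0.25, adjusted p = 0.56) did not pass. Of 13 basal genes tested, 10 fell and none rose, among them *Gnao1* (-3.76), *Tfap2e* (-3.91), *Robo2* (-3.77), *B2m* (-1.36), *Calr4* (-1.22) and the H2-M10 genes *H2-M10.6* (-6.28) and *H2-M10.1* (-6.07).

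Other genes separated V1R from V2R neurons as well. *Rtp1* was called higher with V1R receptors (351 and 375 against 106 and 80.8 CPM), as were *Gng13* (log2 fold change 1.96), *Sema7a* (1.97), *Meis1* (1.19) and the protocadherins *Pcdh7* (1.81) and *Pcdh10* (1.42). *Pcdh9* (-1.13) was called lower, as were *Hspa5* (-0.95) and *Ddit3* (-0.99), genes of the unfolded protein response. With the library as a block *Ddit3* lost its call (adjusted p = 0.072, edgeR), as did *Sema7a* at the 10% mitochondrial limit (0.051) and *Meis1* in neurons with at least 10 UMIs of *Omp* and *Gap43* (0.055). Of the list of receptor choice, 1 of 17 rose and 2 fell, beside 0.91% and 1.61% of all genes. Of axon guidance 5 of 33 rose and 2 fell, and of signalling 2 of 10 rose and 1 fell. These counts include *Gnai2*, *Gnao1*, *Nrp2*, *Ncam2* and *Robo2*, which the apical or basal list also holds. Among the largest changes upward, *S100a5*, a calcium-binding protein, had 26.9 and 25.1 CPM against 0 and 0 CPM, at least 32.7-fold with the same floor, in 32 of 739 neurons with 49% of its UMIs in 2 of them. *Lcn3*, a lipocalin of the vomeronasal glands, had 46.6% of its UMIs in 1 cell, and *S100a8*, a neutrophil gene, 49% in 2 cells. *Ctla2a* (4.71) and *Cyb5r2* (4.27) completed these 5, of which *Cyb5r2* lost its call with the library as a block (adjusted p = 0.075, edgeR) and with DESeq2 (adjusted p = 0.13). In neurons with at least 10 UMIs of *Omp* and *Gap43*, *Ctla2a*, *Cyb5r2* and *S100a8* were not called (adjusted p = 0.28, 0.067 and 0.085, edgeR), nor was *Ctla2a* without doublets (0.098). Of 2 neutrophil markers, *S100a8* was thus called, and its part in the other results was not tested. Downward, *Gm14496*, *Sncg* (-5.57) and *Traf3ip3* (-5.44) joined the H2-M10 genes, and *Gm14496* was at 0 in V1R neurons and had 76.7% of its UMIs in 2 cells, and it was not called at the 10% mitochondrial limit (adjusted p = 0.052, edgeR).

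Whether the rest of the transcriptome differs with the chromosome of the receptor was tested in *Omp*-led neurons with a leading gene on chromosome 6 (161 and 138 cells) or 7 (152 and 119 cells). edgeR called 7 of 13717 genes (0.051%), 0.0219% higher and 0.0292% lower with chromosome 6, and 435 had an unadjusted p under 0.05. The fit with the library as a block called 148, and DESeq2 called 17. In 5 of the 7, 2 cells held at least 50% of the UMIs, and these were *S100a5*, *Ccl4*, *Vmn2r51*, *Vmn2r90* and *Vmn2r-ps159*. The other 2 were spread over many neurons. *Pcdh10*, a protocadherin, was higher with receptors of chromosome 6 at 152 and 135 against 62.9 and 53.1 CPM (log2 fold change 1.30, SE 0.146, adjusted p = 0.0074), in 168 of 299 neurons. With barcodes up to 10% mitochondrial UMIs it was no longer called (log2 fold change 0.97, adjusted p = 0.16, edgeR). *Tmbim1*, a membrane protein, was higher with receptors of chromosome 7 at 54.1 and 36.3 against 11.1 and 12.4 CPM (log2 fold change -1.94, SE 0.249, adjusted p = 0.017), in 68 of 271. Of the fixed lists, 1 of 33 axon guidance genes was called, *Pcdh10*, and none of the apical, basal, receptor choice or signalling genes.

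Both genes followed single receptors, a split chosen after their values were seen and given without a test. *Tmbim1* had a UMI in 13 of 16 *Omp*-led neurons with *Vmn1r89*, 21 of 28 with *Vmn1r85* and 10 of 10 with *Vmn1r86*, genes of 1 cluster on chromosome 7. *Vmn1r233* (11 of 13) and *Vmn1r237* (8 of 15), on chromosome 17, were also high. It had one in 13.5% of 570 neurons with receptors that are not shown one by one. *Pcdh10* had a UMI in 9 of 9 neurons with *Vmn1r228* and 12 of 12 with *Vmn1r226*, on chromosome 17, which the comparison did not use. On chromosome 6 it had one in 12 of 12 neurons with *Vmn1r38*, 7 of 7 with *Vmn1r36* and 29 of 34 with *Vmn1r37*. It had one in 4 of 16 with *Vmn1r89* and 48.5% of 555 others. Barcodes with 5 to 10% mitochondrial UMIs, which were not used for the choice, gave *Tmbim1* in 42 of 46, 34 of 40 and 41 of 43 neurons with *Vmn1r89*, *Vmn1r85* and *Vmn1r86* and in 22.8% of 808 others. In these barcodes *Pcdh10* had a UMI in 43 of 43 neurons with *Vmn1r37*, 14 of 16 with *Vmn1r228* and 59.1% of 789 others. *Vmn1r89*, low for *Pcdh10* in the cells kept, stood at 27 of 46 here, close to the others, and *Vmn1r233* was at 6 of 11 for *Tmbim1*.

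**Figure D5:**
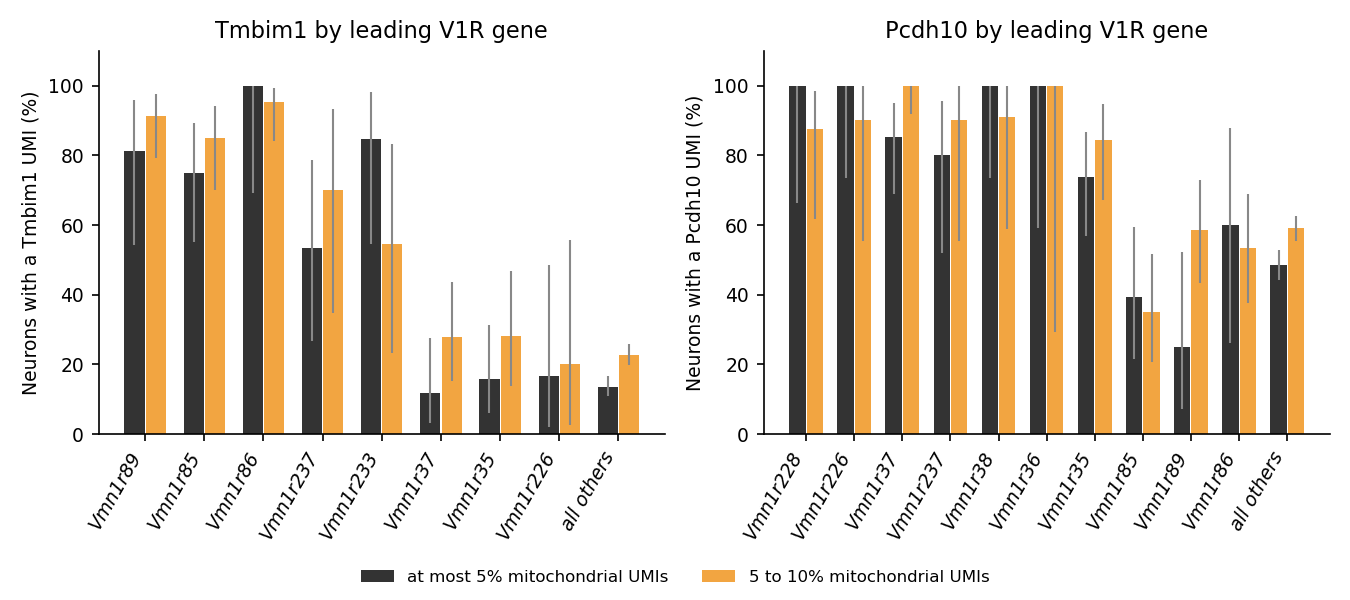
Percent of *Omp*-led neurons with at least 1 UMI of *Tmbim1* (left) or *Pcdh10* (right), by leading V1R gene, with exact 95% intervals, in cells with at most 5% and with 5 to 10% mitochondrial UMIs. *Tmbim1* is at 75% to 100% with *Vmn1r89*, *Vmn1r85* and *Vmn1r86* against 13.5% and 22.8% in neurons with receptors not shown one by one, and *Pcdh10* at 85.3% or more with *Vmn1r228*, *Vmn1r226*, *Vmn1r37*, *Vmn1r38* and *Vmn1r36*.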

How the data were processed

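The authors counted UMIs per gene and barcode with Cell Ranger 4.0.0 on mm10, merged both libraries with aggr (depth setting not given in the sources used here), then deposited raw counts. The labels' processing notes also name bcl2fastq and Seurat 3.2.3. The library of a barcode was read from the number after its dash.

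The filter left cells with 200 to 9000 genes and no more than 5% mitochondrial UMIs (python 3.11.15, scanpy 1.11.5, scipy 1.17.1). Scrublet, at an expected rate of 8%, marked 68 and 104 doublets (1.19% and 2.12%), which were kept in the main values. UMIs summed over neurons gave a chi-square per degree of freedom of 11.0 between libraries. UMIs of 1 cell are not independent draws, so this value cannot show whether the libraries differ. The 2 libraries were kept apart.

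The comparisons used edgeR 4.0.16 in R 4.3.3 (TMM, glmQLFit, glmQLFTest, at least 10 UMIs, Benjamini-Hochberg, 0.05) on UMIs summed per library and group, and CPM of single tested genes use TMM-scaled totals. Both groups of a comparison were drawn from each library, which pairs them by design, and their deviations from group means correlated at 0.0295, 0.258 and 0.0175 across genes for V1R against V2R neurons, *Omp*-led against *Gap43*-led neurons and chromosome 6 against 7. The fit was tested on simulated data. DESeq2 1.42.0 and the library as a block were alternatives.

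Genes named were the 20 V1R genes with most neurons, genes of pairs in at least 3 neurons, the 5 highest in cells without *Omp* and *Gap43*, fixed lists and the 5 largest changes each way. The V1R genes and all lists were chosen with earlier results of these data known. Positions and transcripts came from GENCODE M21 (32235 of 32285 identifiers matched, 204 of the 205 V1R genes with transcripts).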

Additional observations from a re-analysis of the deposited data

Results flagged for a closer look

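Barcodes with 5 to 10% mitochondrial UMIs, which the comparisons do not use, were assigned a V1R gene more often than the cells kept. Of 1409 such barcodes with at least 3 UMIs of *Omp* and *Gap43*, 1139 were assigned a V1R gene (80.8%, 78.7 to 82.9), against 59.9% of neurons in the cells kept. They were also deeper, with a median of 29929 UMIs in assigned neurons against 14540, while their leading gene had a lower median of 114 UMIs against 130.5, and the leading gene was dominant in 56.5% of them against 77.1%. Over both classes 143 of the 205 genes led in at least 1 neuron and 62 led in neither.

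The pair of *Vmn1r86* and *Vmn1r85* was present in the same barcodes. Of 44 neurons led by *Vmn1r86*, 42 had at least 3 UMIs of *Vmn1r85* (95.5%, 84.5 to 99.4) at a median of 11.3% of *Vmn1r86*, and 0 of 43 led by *Vmn1r85* had 3 UMIs of *Vmn1r86*. *Vmn1r192* with *Vmn1r191* was found in 9 of 14, *Vmn1r49* with *Vmn1r47* in 9 of 15 and *Vmn1r18* with *Vmn1r17* in 3 of 6. *Vmn1r35* with *Vmn1r36* was found in 0 of 37 and *Vmn1r37* with *Vmn1r35* in 0 of 49.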

How the results depend on the processing

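The share of neurons assigned a V1R gene was 59.9%. It was 45.3% with neurons at 1 or more UMIs of *Omp* and *Gap43* and 66.1% at 10 or more, 62.1% and 57.9% with receptors at 2 and 5 UMIs, 70.1% with up to 10% mitochondrial UMIs, 55.2% thinned to 3000 UMIs and 62.8% with the 4 other Vmn1r genes counted. The share with a dominant gene (77.1%) was 71.4%, 78.4%, 75.2%, 79.0%, 65.5% and 80.9% under the first 6 of these, and 79.6% without the barcodes of repeated sets. A second gene (23.4%) was present in 27.2% and 19.2% with receptors at 2 and 5 UMIs, 36.4% at the 10% mitochondrial limit, 15.7% thinned, 21.1% without the sets and 18.9% when it also had to reach 10% of the leading gene. Second genes within 100 kb (20.8%) made up 12.9% at the 10% limit, 12.8% thinned, 12.6% as neighbors in gene order and 10.8% with the 10% rule. The background share of 30.0% was 33.5% at the 10% limit, 13.8% thinned, 31.8% with the 4 genes and 27.3% in cells with *C1qa* and *C1qb*. The choices of repeated sets and of the 10% rule were added after the data had been seen.

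Leaving out replicate 1 or 2 gave 59.4 to 60.5% assigned, 104 to 113 leading genes against 127, 76.8 to 77.6% dominant, 22.2 to 24.9% with a second gene, 16.0 to 25.2% neighbors and 29.4 to 30.5% background, and no count of called genes, since no residual degrees of freedom remain. *Vmn1r86* with *Vmn1r85* was found in 7 of 7 neurons without replicate 2, *Vmn1r49* with *Vmn1r47* in 40.0% at 5 UMIs and *Vmn1r35* with *Vmn1r36* in 0% at 5 UMIs.

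For chromosome 6 against 7, 17 genes were called by DESeq2, 148 with the library as a replicate block, 13 with filterByExpr, 4 at the 10% limit and 12 without repeated sets, against 7, and the cause was not tested. The block gave 333 against 363 calls for V1R against V2R neurons and 5639 against 4423 for maturity, and it changed the calls of *Cyb5r2* and *Ddit3* among the genes named there. Of 778 alternatives of the 78 named genes, 742 kept sign and side, 29 lost the call, 4 gained it and 3 turned. The 3 are *Vmn1r37* in *Omp*-led against *Gap43*-led neurons, at -0.00981 at the 10% limit and between -0.61 and 1.28 with a library left out, and *S100a5* by chromosome, at -0.31 at the 10% limit. At that limit *Pcdh10* by chromosome (0.97) also lost its call.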
